A study of Mus musculus with 6 samples.

Results

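BAF and ncBAF are forms of the SWI/SNF chromatin remodeler. The 8 genes described here encode subunits that set these forms apart from the PBAF form: Arid1a, Arid1b, Dpf1, Dpf2, Dpf3, Ss18, Ss18l1 and Brd9. They were picked by name from the 54232 genes of the count table, after the gene identifiers had been matched to mouse symbols, and all 8 were found. Each library is an RNA-seq sample of mouse primary uterine stromal cells taken at day 4 of pseudopregnancy, and there were 3 labelled WT and 3 labelled Pbrm1 cKO. Per the study's methods, the controls carried floxed Pbrm1 alleles (Pbrm1 fl/fl), and the cKO animals carried the same floxed alleles together with Cre expressed from the progesterone receptor locus (PR-IRES-cre/+). Deletion is therefore directed to cells that express the progesterone receptor, the controls are called WT in the labels, and the effects of Cre and of the deletion cannot be told apart. The mice were 8 to 12 weeks old, 5 to 10 uterine horns of pseudopregnant animals were digested for a preparation (1 label field names pregnancy instead), and the cells were plated for 4 h and kept for 2 h in fresh medium before RNA was taken.

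SWI/SNF complexes use the ATPase BRG1 or BRM to slide or evict nucleosomes. Canonical BAF holds ARID1A or ARID1B, which are large DNA-binding scaffold proteins, a DPF protein with paired PHD fingers that read acylated histone tails, and SS18 or its paralog SS18L1. PBAF instead holds PBRM1, ARID2, BRD7 and PHF10, and the noncanonical form ncBAF has no ARID subunit and is built around BRD9 and BICRA or BICRAL, with SS18 shared between BAF and ncBAF. DPF1 and SS18L1 are best known from neurons and DPF3 from heart and skeletal muscle, whereas DPF2 and SS18 are made in most tissues. The comparison asks which of these transcripts differed in cells in which the PBAF subunit gene Pbrm1 had been deleted.

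Total counts ranged from 13253575 to 18338667 per library, so a count of 0 allows up to 3 counts, or 0.164 to 0.226 CPM (counts scaled to the library total). Normalized counts are counts divided by the DESeq2 size factor of the library. Pbrm1 itself was at 1354, 1385 and 1677 normalized counts in WT and at 396.6, 458.6 and 451.3 in Pbrm1 cKO (log2 fold change -1.76, SE 0.13, DESeq2 adjusted p = 5.19e-40). All 12 stromal markers on the list had counts in these libraries. The summed level of the leukocyte markers was 264 to 572 CPM in WT and 2351 to 2484 in Pbrm1 cKO, and 9 of the 10 tested rose, while Nkg7 had at most 2 counts in any library. Stromal markers summed to 6608 to 7892 in WT and 5826 to 6186 in Pbrm1 cKO, with 1 of 12 higher and 6 lower. Epithelial markers (129 to 226 against 231 to 245) had 4 of 11 tested higher, endothelial markers (118 to 347 against 115 to 127) had 1 of 10 higher and 3 lower, and smooth muscle markers (3759 to 4043 against 3651 to 3792) had 4 of 9 tested lower. WT replicate 1 was the lowest of the WT libraries in the leukocyte, epithelial and endothelial sums. In bulk samples fewer cells of a type and less RNA per cell cannot be told apart, and the leukocyte, epithelial and stromal sums separated by group, so their part in each difference given here cannot be told apart from that of the genotype. The labels do not say whether the replicates came from separate animals, so p-values measure only the spread between these samples. A caption of the paper that covers its RNA-seq tracks names 3 biological replicates. The spread was unequal: beyond counting noise, the coefficient of variation between replicates was 0.16 in WT and 0.047 in Pbrm1 cKO.

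Of the 8 genes, Arid1a, Arid1b and Ss18l1 were higher in Pbrm1 cKO, Ss18 was lower, and Dpf1, Dpf2, Dpf3 and Brd9 did not pass the test. Thus 3 of 8 rose and 1 of 8 fell at a DESeq2 adjusted p under 0.05. Over all 17474 genes tested, 31.1% passed that threshold, 15.9% as higher and 15.2% as lower. The same 4 genes were those whose WT and Pbrm1 cKO values did not overlap, whereas 48.6% of all tested genes had groups that did not overlap, 24.0% with Pbrm1 cKO higher and 24.6% with it lower. The median log2 fold change was 0.056 over the 8 genes, and 0.064 (the value of Dpf2) over the 7 without Dpf3, beside -0.00074 over all tested genes. The median size of the change was 0.37 over all tested genes and 0.72 over those past the threshold. Each of the 4 changes was smaller than the median called change, which is over genes of all count levels, not matched to these 4. At the thresholds of the study (fold above 1.5, p under 0.01 and adjusted p under 0.1) only Arid1b of the 8 was counted as higher and none as lower, beside 9.53% and 8.31% of all tested genes.

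**Figure D1:**
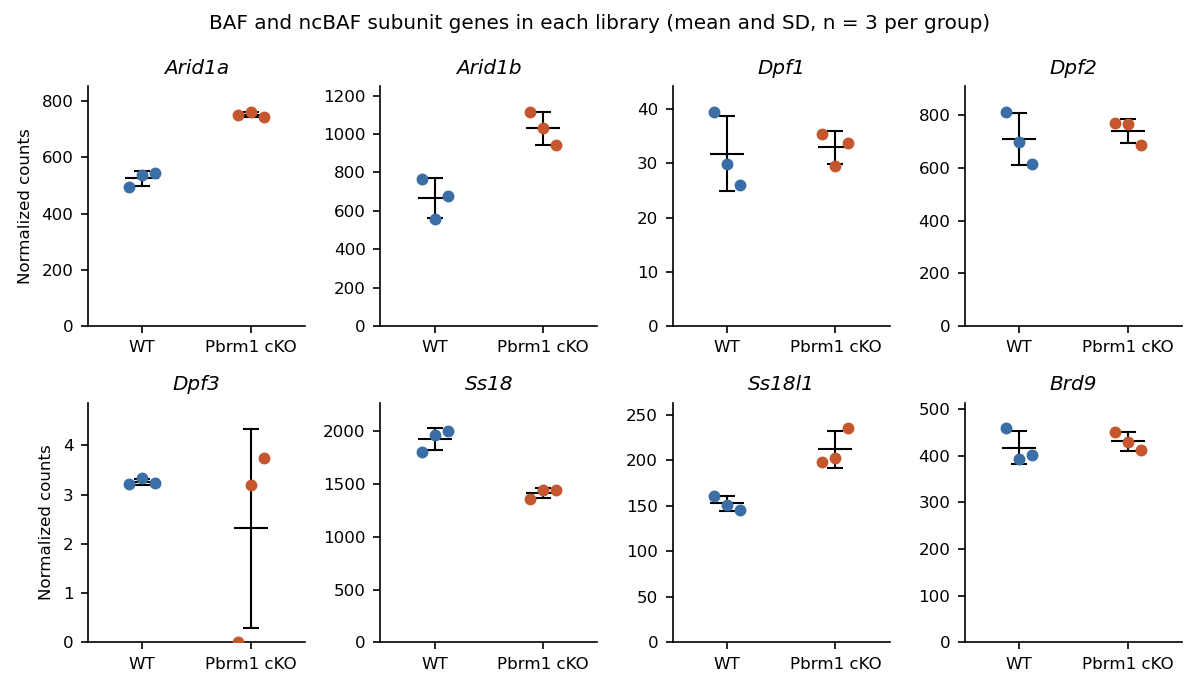
Normalized counts (y axis, from 0) of each of the 8 genes in the 3 WT and the 3 Pbrm1 cKO libraries (points), with the mean (wide bar) and SD (whiskers). Arid1a, Arid1b and Ss18l1 lie higher in all 3 Pbrm1 cKO libraries than in any WT library and Ss18 lies lower, while the groups of the other 4 genes overlap.

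**Figure D2:**
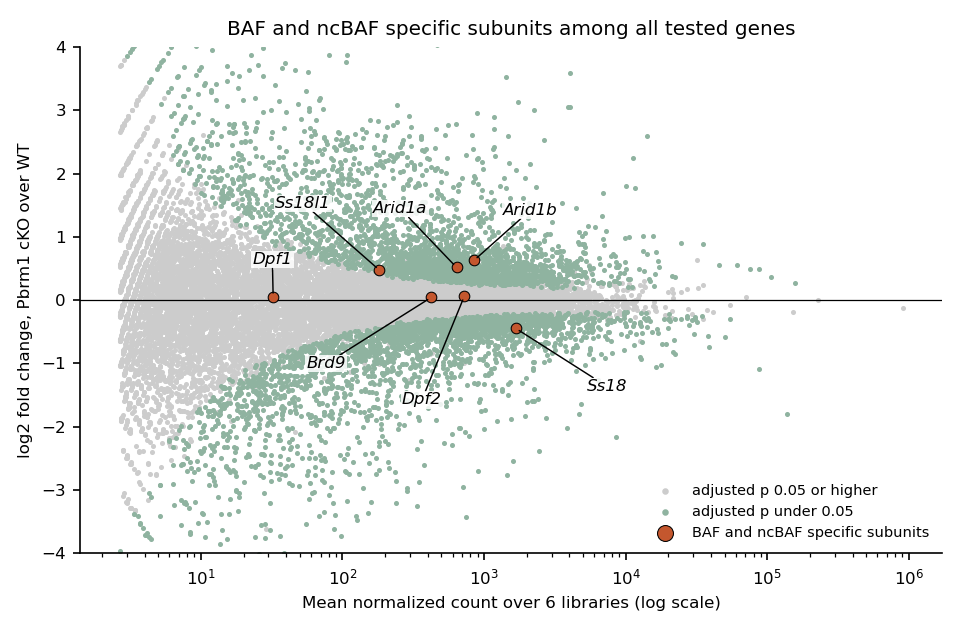
Log2 fold change of Pbrm1 cKO over WT (y axis) against the mean normalized count over the 6 libraries (x axis, log scale) for the genes tested by DESeq2, green where the adjusted p was under 0.05. Of the BAF and ncBAF specific subunits, Arid1a, Arid1b, Ss18l1 and Ss18 lie among the green points and Dpf1, Dpf2 and Brd9 lie near 0. Dpf3 is left out because its counts were at the limit of detection, and 155 genes lie beyond the y axis.

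The start regions of the 3 genes that rose and of Brd9, which did not pass the test, are shown so that genes that moved together can be set beside a member that did not. Windows of 300 bases, from 250 bases before to 50 bases after the RefSeq start, were taken from the RefSeq promoter table of GRCm38.p6. Of the 8 genes, 7 had a window there, and Ss18, the gene that fell, had none. Capitals mark the GC box letters GGGCGG or, on the opposite strand, CCGCCC, and in Brd9 also the ETS letters CCGGAAG. Matches may overlap one another, and each is counted. The Arid1a window lies at chr4:133756720-133757019 on the minus strand, the Arid1b window at chr17:4994824-4995123 on the plus strand, the Ss18l1 window at chr2:180042233-180042532 on the plus strand, and the Brd9 window at chr13:73937561-73937860 on the plus strand.
Arid1a: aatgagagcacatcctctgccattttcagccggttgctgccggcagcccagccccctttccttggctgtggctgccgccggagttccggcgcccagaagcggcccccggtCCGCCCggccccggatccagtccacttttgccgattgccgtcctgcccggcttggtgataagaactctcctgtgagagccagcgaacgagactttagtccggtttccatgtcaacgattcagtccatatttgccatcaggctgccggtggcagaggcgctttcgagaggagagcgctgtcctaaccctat
Arid1b: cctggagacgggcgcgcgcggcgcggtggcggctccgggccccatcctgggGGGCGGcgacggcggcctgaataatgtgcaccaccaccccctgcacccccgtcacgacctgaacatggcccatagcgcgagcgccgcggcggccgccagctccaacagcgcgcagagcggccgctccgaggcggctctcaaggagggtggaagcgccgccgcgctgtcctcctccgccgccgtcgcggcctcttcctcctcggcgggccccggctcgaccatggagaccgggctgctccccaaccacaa
Ss18l1: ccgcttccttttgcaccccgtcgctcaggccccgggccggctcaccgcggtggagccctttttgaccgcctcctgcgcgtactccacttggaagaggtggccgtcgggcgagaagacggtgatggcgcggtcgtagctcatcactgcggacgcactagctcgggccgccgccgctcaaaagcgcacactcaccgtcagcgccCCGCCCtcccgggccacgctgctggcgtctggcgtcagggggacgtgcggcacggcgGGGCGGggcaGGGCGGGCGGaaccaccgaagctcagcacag
Brd9: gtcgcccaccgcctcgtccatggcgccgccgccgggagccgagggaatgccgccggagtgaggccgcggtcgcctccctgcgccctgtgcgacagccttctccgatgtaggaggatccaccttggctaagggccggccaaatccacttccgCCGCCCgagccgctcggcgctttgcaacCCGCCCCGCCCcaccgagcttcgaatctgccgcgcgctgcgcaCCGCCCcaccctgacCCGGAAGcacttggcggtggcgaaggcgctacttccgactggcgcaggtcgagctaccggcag

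The windows shown of Arid1a and Arid1b each held 1 GC box, and those of Ss18l1 and Brd9 held 4 each. For Arid1a and Brd9 the table holds a second RefSeq start, and the window at the GENCODE start is the one shown. The second window of Arid1a (chr4:133753936-133754235, 2784 bases away) held 7 GC boxes, with 79.7% GC and 36 CG dinucleotides, and that of Brd9 (17 bases away) held 4 GC boxes. At least 1 GC box was found in 35.7% of all 32851 windows of the same length. Only the Brd9 window of these 4 held the ETS letters, which were found in 8.86% of all windows. All 4 windows shown were rich in GC (61.3% for Arid1a, 75.3% for Arid1b, 71.7% for Ss18l1 and 72% for Brd9, against a median of 52.7%) and in CG dinucleotides (22, 42, 39 and 40, against a median of 7). Of the other genes that did not pass the test, the window of Dpf1 held 4 GC boxes, that of Dpf3 held 1 and that of Dpf2 held 0, so the counts of genes that rose (1 to 7) and of those that did not pass (0 to 4) overlapped. The RefSeq start of Arid1b lies 742 bases inside the gene as annotated by GENCODE. Its window thus lies wholly inside that gene, unlike those of Arid1a and Brd9 at the GENCODE start. The matches are a description of the sequence and do not show that a factor binds there.

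The genes of both alternative ARID subunits of BAF rose by similar amounts. Arid1a (ENSMUSG00000007880.16, chromosome 4, positions 133679008 to 133756769, minus strand, GRCm38, 21 exon blocks) was at 494.9, 536 and 544.8 normalized counts in WT replicates 1 to 3 and at 751.8, 762.3 and 742.2 in Pbrm1 cKO replicates 1 to 3. All Pbrm1 cKO libraries were above all WT libraries. The means were 525 ± 26.7 and 752 ± 10 (SD, n = 3 each), a 1.43-fold difference (log2 fold change 0.52, SE 0.11, 95% interval 0.31 to 0.73, DESeq2 adjusted p = 1.54e-05). The log2 fold change was 0.48 without WT replicate 1, the WT library with the lowest leukocyte, epithelial and endothelial sums. Of the 50-base stretches of its transcripts, 0.718% also occurred in the pseudogene Gm8134, which had no counts.

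Arid1b (ENSMUSG00000069729.14, chromosome 17, positions 4994332 to 5347656, plus strand, 21 exon blocks) encodes the paralog that takes the place of ARID1A in part of the BAF complexes. It was at 767.4, 556 and 674.5 normalized counts in WT and at 1115, 1032 and 943 in Pbrm1 cKO. The WT libraries were spread more widely than for Arid1a, and the groups did not overlap. The means were 666 ± 106 and 1030 ± 85.9, a 1.55-fold difference (log2 fold change 0.63, SE 0.14, 95% interval 0.35 to 0.90, DESeq2 adjusted p = 7.23e-05). Arid1b had the largest fold change of the 8 genes, and it passed the threshold under each of the 15 alternatives tried. No 50-base stretch of its transcripts occurred in another gene.

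Per length, both ARID1 genes were at like levels. The mean was 45.8 normalized counts per kb for Arid1a and 52.9 for Arid1b in WT, where the libraries of the genes overlapped, and 65.5 and 81.7 in Pbrm1 cKO, where they did not. The log2 ratio of Arid1b to Arid1a within a library was 0.50, -0.082 and 0.17 in WT and 0.43, 0.30 and 0.21 in Pbrm1 cKO. The groups overlapped and differed by 0.12 on average (two-sided exact permutation test over samples, p = 0.6, adjusted p = 0.84 over 6 pairs of genes). With 3 libraries a group the smallest p possible is 0.1, so this test could not pass 0.05. With single libraries left out the difference ranged from -0.02 to 0.27.

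The ARID subunit of PBAF, Arid2, is the counterpart of the ARID1 genes in the complex that loses PBRM1. It was at 595.4, 572.7 and 580.5 normalized counts in WT and at 1143, 1120 and 1079 in Pbrm1 cKO (log2 fold change 0.93, SE 0.10, DESeq2 adjusted p = 3.51e-19). The log2 ratio of Arid2 to Arid1a was 0.36, 0.19 and 0.19 in WT and 0.70, 0.65 and 0.64 in Pbrm1 cKO. The ratios did not overlap and rose from 1.19 to 1.58, with the smallest p that the exact permutation test allows before adjustment (p = 0.1, and 0.2 after it). Summed per kb, the 3 ARID genes went from 153 ± 7.88 to 251 ± 10.3 normalized counts. Within that sum Arid1a made up 27% to 32.4% in WT and 25.1% to 26.9% in Pbrm1 cKO, Arid1b 30.6% to 38.2% and 31.2% to 34%, and Arid2 34.8% to 37% and 40.9% to 41.9%. The share of Arid1b overlapped between groups, whereas those of Arid1a and Arid2 did not.

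SS18 and SS18L1 are alternative partners in BAF, and their transcripts moved in opposite directions. Ss18 (ENSMUSG00000037013.15, chromosome 18, positions 14624198 to 14682914, minus strand, 11 exon blocks) was at 1807, 1968 and 2004 normalized counts in WT and at 1360, 1443 and 1443 in Pbrm1 cKO. Every Pbrm1 cKO library was below every WT library. The mean fell from 1926 ± 105 to 1416 ± 47.7, or 0.735 of the WT level (log2 fold change -0.44, SE 0.093, 95% interval -0.63 to -0.26, DESeq2 adjusted p = 1.8e-05). Ss18 shared 4.82% of its 50-base stretches with the pseudogene Gm1826, which had 76, 52 and 90 raw counts in the WT libraries against 39, 69 and 57 for Pbrm1 cKO, so a small part of its reads may have been assigned there or left out.

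Ss18l1 (ENSMUSG00000039086.9, chromosome 2, positions 180042509 to 180070201, plus strand, 11 exon blocks), also known as CREST, was at 161.4, 150.9 and 145.9 normalized counts in WT and at 198.3, 203 and 235.5 in Pbrm1 cKO. The groups did not overlap, and Pbrm1 cKO replicate 3 was the highest. The mean rose from 153 ± 7.89 to 212 ± 20.3, a 1.39-fold difference (log2 fold change 0.47, SE 0.17, 95% interval 0.14 to 0.81, DESeq2 adjusted p = 0.0204). This call was the least firm of the 4. With DESeq2 it was lost without WT replicate 2 (adjusted p = 0.0768), WT replicate 3 (0.0707), Pbrm1 cKO replicate 1 (0.0506), 2 (0.0733) or 3 (0.139), and kept without WT replicate 1 (0.0232), while the log2 fold change stayed between 0.40 and 0.52. edgeR and limma voom with all libraries gave adjusted p = 0.0132 and 0.0266.

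The ratio of the SS18 paralogs showed the largest shift of the 6 pairs that were compared, apart from Dpf3 to Dpf2, whose counts were too low. The log2 ratio of Ss18l1 to Ss18 per kb was -3.42, -3.64 and -3.72 for WT replicates 1 to 3, and -2.72, -2.77 and -2.55 for the Pbrm1 cKO replicates. The groups stood well apart, by 0.91 on average, and the ratio went from 0.0828 to 0.156 (two-sided exact permutation test, p = 0.1, the smallest that this design allows, adjusted p = 0.2). Ss18l1 made up 7.65% ± 0.762 of the per-kb sum of both genes in WT and 13.5% ± 0.917 in Pbrm1 cKO, while the sum itself went from 461 ± 21.3 to 362 ± 13.8. Ss18 thus made up most of this pair in both groups. Neural markers, given here because SS18L1 is known from neurons, summed to 17.5 to 22.2 CPM in WT and 9.22 to 11.1 in Pbrm1 cKO (0 of 6 tested higher and 2 lower). Most of that sum was Tubb3, at 281, 222 and 202 raw counts in the WT replicates against 142, 141 and 144, with Rbfox3 at 0 in all libraries and Snap25 at 1 count in 1 library.

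**Figure D3:**
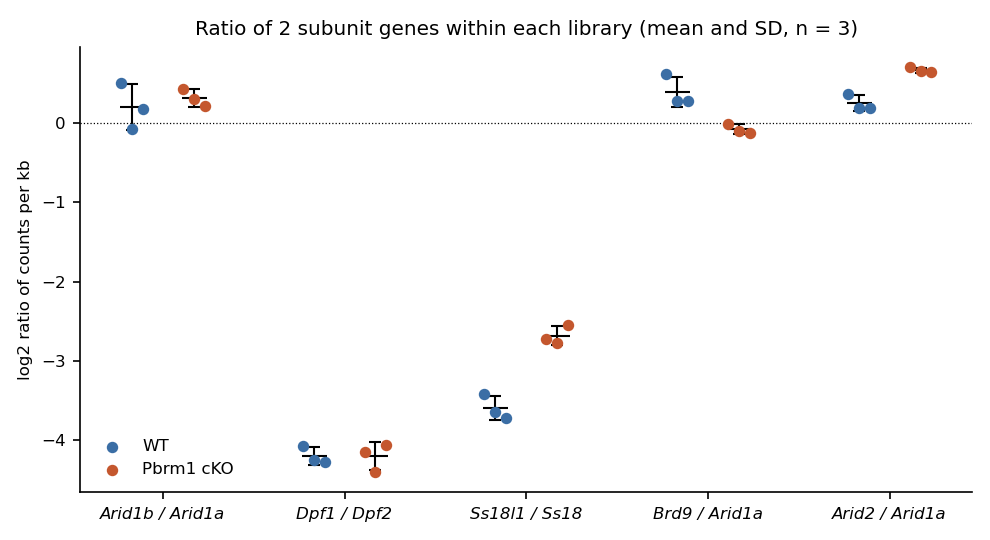
Log2 ratio of the normalized counts per kb of 2 subunit genes within each library (y axis) for 5 pairs (x axis), with points for libraries, the mean as a bar and the SD as whiskers. The Ss18l1 to Ss18 ratio rose from -3.59 to -2.68 on average and the Arid2 to Arid1a ratio from 0.25 to 0.66, the Brd9 to Arid1a ratio fell from 0.39 to -0.082, and the other 2 pairs overlap between the groups.

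The DPF genes did not pass the test. Dpf2 (ENSMUSG00000024826.14, chromosome 19, positions 5896516 to 5913010, minus strand, 14 exon blocks), the broadly made member, was at 813.4, 699.2 and 615.1 normalized counts in WT and at 769.5, 766.3 and 688.7 in Pbrm1 cKO. The Pbrm1 cKO values lay inside the range of the WT values. The means were 709 ± 99.5 and 741 ± 45.7 (log2 fold change 0.064, SE 0.13, 95% interval -0.20 to 0.33, DESeq2 adjusted p = 0.782), so a rise of up to 0.33 lay within the interval. Of its exonic bases, 79 overlap the opposite-strand gene Gm42067, and the counting was strand-specific.

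Dpf1 (ENSMUSG00000030584.14, chromosome 7, positions 29303951 to 29318243, plus strand, 10 exon blocks), a DPF gene known mainly from neurons, was low. It was at 39.55, 29.97 and 25.94 normalized counts in WT and at 35.52, 29.56 and 33.78 in Pbrm1 cKO. The groups overlapped, and the log2 fold change of 0.047 had a wide interval of -0.66 to 0.76 (SE 0.36, DESeq2 adjusted p = 0.945), so a change as large as that of Arid1b could not have been told from none. The log2 ratio of Dpf1 to Dpf2 per kb was -4.20 on average in both groups (exact permutation p = 1).

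Dpf3 (ENSMUSG00000021221.15, chromosome 12, positions 83213745 to 83487716, minus strand, 14 exon blocks) was at the limit of detection. It had 3 counts in each WT library and 0, 4 and 4 counts in Pbrm1 cKO replicates 1 to 3. These sum to 9 and 8 counts, and the ratio of Pbrm1 cKO to WT after scaling was 0.737 with an exact binomial 95% interval of 0.247 to 2.15, which covers counting error only. A difference within that interval could not be told from none at these counts. Dpf2 made up 94.2% ± 0.293 of the per-kb sum of the DPF genes in WT and 94.4% ± 0.691 in Pbrm1 cKO, and this sum was 116 ± 16.6 and 121 ± 6.62 normalized counts per kb.

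Brd9 (ENSMUSG00000057649.6, chromosome 13, positions 73937811 to 73960895, plus strand, 14 exon blocks) encodes the bromodomain protein that defines ncBAF. It was at 458.5, 391.8 and 401 normalized counts in WT and at 450.9, 429.1 and 411 in Pbrm1 cKO. The groups overlapped, with WT replicate 1 the highest of all. The means were 417 ± 36.2 and 430 ± 20 (log2 fold change 0.044, SE 0.13, 95% interval -0.21 to 0.30, DESeq2 adjusted p = 0.847). The upper bound of this interval lay just under the lower bound of that of Arid1a (0.31). The log2 ratio of Brd9 to Arid1a per kb was 0.61, 0.27 and 0.28 in WT and -0.013, -0.10 and -0.13 in Pbrm1 cKO. It fell by 0.47 with no overlap, from a ratio of 1.31 to 0.945 (exact permutation p = 0.1, the smallest possible, adjusted p = 0.2). This compares the transcripts of these 2 genes only, and the complexes were not measured. The BAF gene Dpf2 did not pass the test. Of the ncBAF genes, Bicral rose by 0.73 and Bicra (0.29) did not pass.

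Ranked by normalized counts per kb, Ss18 was the highest of the 8 genes in WT (426), followed by Dpf2 (109), Brd9 (60), Arid1b (52.9), Arid1a (45.8), Ss18l1 (35.2), Dpf1 (5.92) and Dpf3 (0.772). The libraries of Brd9 and Arid1b overlapped, as did those of Arid1b and Arid1a, and the other neighbours did not. In Pbrm1 cKO the order was Ss18 (313), Dpf2 (114), Arid1b (81.7), Arid1a (65.5), Brd9 (61.9), Ss18l1 (48.9), Dpf1 (6.13) and Dpf3 (0.548), and only Arid1a and Brd9 overlapped. Brd9 was thus above both ARID1 genes by its mean in WT and below both in Pbrm1 cKO. The order compares genes by total annotated exon length, whichever isoform is used.

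Of the 20 other SWI/SNF subunit genes on the list, 19 had counts, 7 rose and 3 fell, with a median log2 fold change of 0.18. Over all tested genes 15.9% were higher and 15.2% lower. One of the 3 that fell was Pbrm1, the deleted gene, and the others were Smarcd2 and Actl6a. Actl6b, the neuronal counterpart of Actl6a, had no counts. Of the partners of BRD9 in ncBAF, Bicral, at 100 ± 17.6 normalized counts in WT, rose to 167 ± 12 (log2 fold change 0.73, DESeq2 adjusted p = 0.00193), and Bicra was at 60.6 ± 11.5 and 74.2 ± 11.5 (0.29, adjusted p = 0.479). Of the PBAF genes besides Pbrm1, Arid2 and Brd7 (0.33, adjusted p = 0.0321) rose, and Phf10 was at 1638 ± 114 and 1419 ± 24.6 (-0.21, adjusted p = 0.0895). Arid2 had the largest rise of all the subunit genes.

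On the list of core and ATPase subunits, the ATPase gene Smarca4 (BRG1) rose by 0.34 (log2, DESeq2 adjusted p = 0.0262). The scaffold genes Smarcc1 and Smarcc2 rose by 0.61 and 0.56, within the range seen for Arid1a and Arid1b. Smarcd1 rose by 0.54 while its paralog Smarcd2 fell by 0.48, another pair of alternative subunits in which 1 gene was higher and the other lower. Actl6a fell by 0.26. Smarca2, Smarcb1, Smarcd3, Smarce1 and the BCL7 genes Bcl7a, Bcl7b and Bcl7c did not pass the test, with log2 fold changes of -0.17 to 0.22. Without Pbrm1 cKO replicate 1, 4 of the 19 genes were called higher instead of 7, while the share over all tested genes went from 15.9% to 12.7%.

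**Figure D4:**
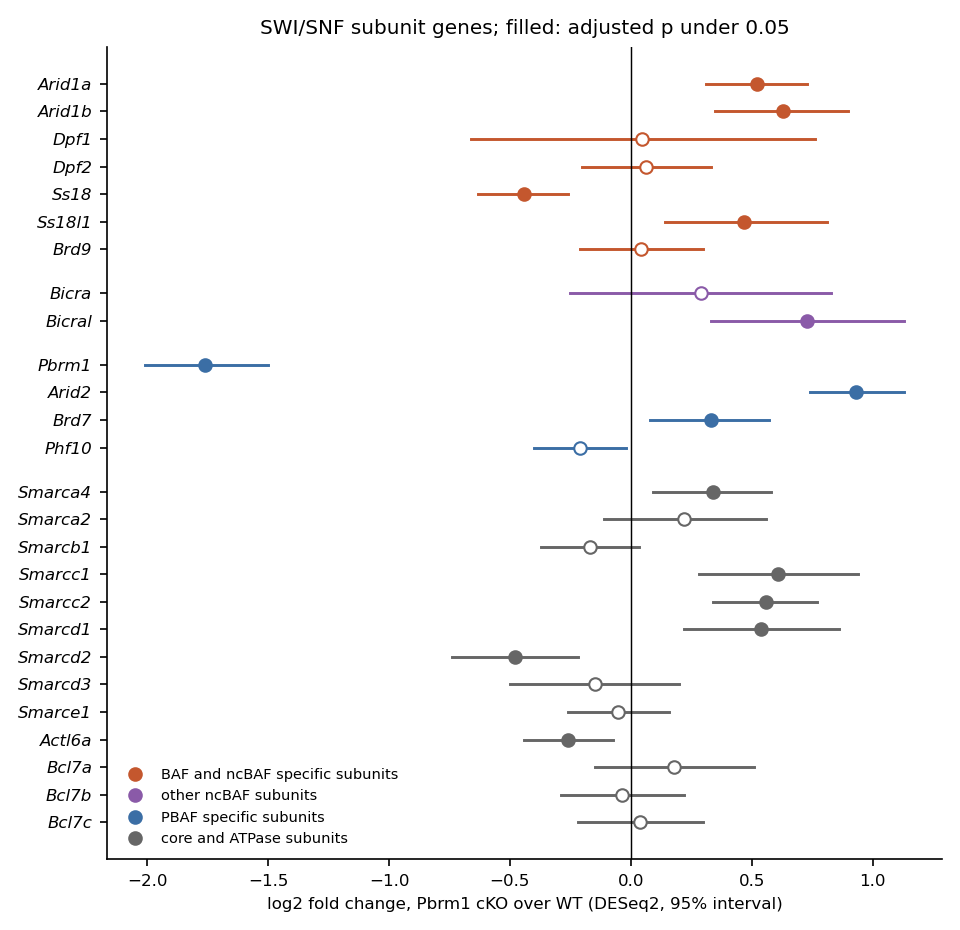
Log2 fold change of Pbrm1 cKO over WT (x axis) with its 95% interval for each SWI/SNF subunit gene with counts, by the form it belongs to, filled where the DESeq2 adjusted p was under 0.05. Arid1a, Arid1b and Ss18l1 lie to the right of 0 together with Arid2, Bicral and several core genes, Ss18 lies to the left with Smarcd2 and Actl6a, and Pbrm1 lies far to the left. Dpf3 is left out.

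For the pair of genes with the lowest adjusted p, Arid1a and Ss18, the protein-coding genes with the most similar profile over the 6 libraries were searched among 10375 genes, by the distance between log2 profiles centred on their means. Nearest to Arid1a were Cpt1a, a mitochondrial fatty acid import enzyme (distance 0.0499), Dync1h1, the dynein heavy chain (0.0516), and Sestd1 (0.0781). Nearest to Ss18 were Mrpl22, a mitochondrial ribosomal protein (0.0503), Tmx3, a thioredoxin-related protein of the endoplasmic reticulum (0.0715), and Fbxw7, a substrate receptor of a ubiquitin ligase (0.0781). Such profiles were common, since 570 genes lay within a distance of 0.3 of Arid1a and 880 of Ss18, a radius chosen after the values were seen.

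Across the 15 alternative settings the log2 fold change of Arid1a ranged from 0.36 to 0.54, that of Arid1b from 0.45 to 0.74 and that of Ss18 from -0.49 to -0.41. All 3 kept an adjusted p under 0.05 in each of them. The lowest values of Arid1a and Arid1b, the genes with the most exonic bases of the 8 (11476 and 12600), came from the fit in which the trend of each library with gene length was removed (0.36, adjusted p = 0.0035, and 0.45, adjusted p = 0.00745). Dpf1, Dpf2 and Brd9 passed the threshold in none of the settings.

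**Figure D5:**
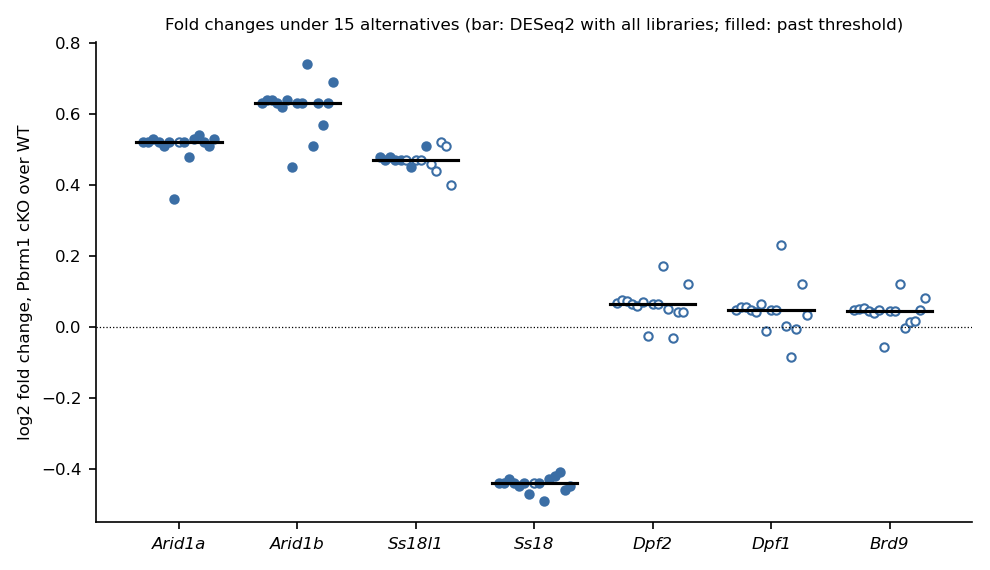
Log2 fold change of Pbrm1 cKO over WT (y axis) of 7 genes under 15 alternative settings (points) and with DESeq2 on all libraries (bar), with points filled where the call passed the threshold of that setting. Arid1a, Arid1b and Ss18 stay away from 0 under each setting, Ss18l1 keeps its size with several open points, and Dpf2, Dpf1 and Brd9 lie around 0. The single open points of Arid1a and Ss18 are the thresholds of the study, which ask for a fold above 1.5.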

How the data were processed

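RNA-seq libraries came from 3 WT and 3 Pbrm1 cKO samples, grouped by the genotype in the labels. The authors trimmed reads with cutadapt, mapped them to GRCm38 with HISAT2 and counted them with featureCounts 1.6.4 on the reverse strand for genes of GENCODE mouse release 18. The deposited table holds raw counts per gene and library, without normalization, and exon lengths. Reads with more than 1 place or gene are not counted by the defaults of that program, so genes with near-identical copies may lose reads. The labels describe total RNA primed with random and poly(T) oligonucleotides with depletion of some transcripts. The paper's methods describe mRNA purification, so the RNA classes captured are not settled. Symbols came from GENCODE release 21 (54079 of 54232 identifiers, 99.7%).

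The Wald test of DESeq2 1.42.0 (R 4.3.3) was run on the 6 libraries without covariates, with its default size factors and independent filtering, and Benjamini-Hochberg adjusted p under 0.05 over all genes tested was the threshold. Log2 fold changes compare Pbrm1 cKO with WT, without shrinkage. Adjusted p-values come from DESeq2 unless another tool is named. Alternatives were edgeR 4.0.16 (quasi-likelihood), limma 3.58.1 (voom, with the spread estimated group by group), TMM size factors, no independent filtering, at least 10 counts in at least 3 libraries, a replicate block, removal of a gene length trend, other thresholds, and each library left out. Ratios of 2 genes used normalized counts per kb with 0.5 added, and a two-sided exact permutation test adjusted over 6 pairs. The floor was 3 counts per library. The fits were tested on simulated data. No pair of replicates agreed within sampling noise. The median chi-square was 1.55 to 2.54 times that of noise between Pbrm1 cKO replicates and 3.68 to 7.96 times between WT replicates. The main DESeq2 fit uses a single spread per gene for both groups. Named were the 8 genes, other SWI/SNF subunits, listed markers and the 3 nearest profiles of the pair of genes with the lowest adjusted p (mean normalized count of at least 50). The genes and lists were chosen with earlier results of these data known. Sequences are from the RefSeq promoter table, and 50-base stretches from GENCODE release 21 transcripts.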

Additional observations from a re-analysis of the deposited data

How the results depend on the processing

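Ss18l1 was the member whose call depended most on the setting. Its log2 fold change of 0.47 no longer passed at an adjusted p under 0.01 (0.0192), and ranged from 0.40 to 0.52 when single libraries were left out, passing only without WT replicate 1. The thresholds of the study, applied to the DESeq2 fit made here, left 1665 genes higher and 1452 lower, 1 of the 8 genes higher and 0 lower, and 3 of the other subunit genes higher and 1 lower. Arid1a (0.52), Ss18 (-0.44) and Ss18l1 (0.47) were lost there because their folds were under 1.5, and Ss18 (unadjusted p = 1.81e-06) was the only one of the 8 lower at an unadjusted p under 0.05 in DESeq2. With edgeR 3 of the 8 genes were higher and 1 lower, beside 20.8% and 20.6% of all genes it tested, and with limma voom also 3 and 1, beside 21.7% and 20.4%. With single libraries left out, the other subunit genes called higher numbered 4 to 7 and those lower 2 to 4, and all genes called numbered 1923 to 2915 higher and 1790 to 2660 lower.

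Values near 0 changed sign without passing the threshold. With the gene length trend removed, Dpf1 was at -0.012, Dpf2 at -0.026 and Brd9 at -0.056. With single libraries left out, Dpf1 ranged from -0.084 to 0.23, Dpf2 from -0.032 to 0.17, Brd9 from -0.0022 to 0.12, the difference in the log2 ratio of Arid1b to Arid1a from -0.02 to 0.27 and that of Dpf1 to Dpf2 from -0.076 to 0.10. The cause was not tested. The differences in the ratios of Ss18l1 to Ss18 (0.85 to 1.00), Brd9 to Arid1a (-0.53 to -0.36) and Arid2 to Arid1a (0.39 to 0.47) kept their sign in all 8 settings tried for them.

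Samples with the same replicate number did not deviate together (r = 0.0401, -0.0388 and -0.000927 for numbers 1 to 3), and only those numbered 1 correlated best with each other, so the numbers were not taken to pair the samples. With the replicate block, 2175 genes were higher and 1828 lower, against 2774 and 2658, and Ss18l1 (0.47) had an adjusted p of 0.126. The block changed no call of the other 7 genes. Depth limits Dpf3 and, to a lesser degree, Dpf1.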
